A study of Mus musculus with 4 samples.

Results

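The Cyp4a genes of the mouse encode cytochrome P450 enzymes that hydroxylate fatty acids. The 6 genes described here, Cyp4a10, Cyp4a12a, Cyp4a12b, Cyp4a14, Cyp4a31 and Cyp4a32, were taken by symbol from the 54532 genes counted in the series, with earlier results of these data known. All 6 passed the filter on low counts, which left 13403 genes. The series holds 4 RNA-seq libraries of liver from the inbred mouse strain C57BL/6. The 2 libraries of the HFD group (334 and 335) come from mice on HFD, an abbreviation commonly read as high-fat diet. The 2 libraries of the I3A group (303 and 305) come from mice that had the same HFD together with I3A, an agent given only by this abbreviation. The labels state no dose, duration, age or sex, and both groups share the HFD, so every value below is set against HFD alone. The title of the series asks whether I3A acts on liver mitochondrial respiration in a fatty liver model.

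In omega-oxidation a Cyp4a enzyme of the endoplasmic reticulum adds a hydroxyl group to the methyl end of a fatty acid. Alcohol and aldehyde dehydrogenases turn the product into a dicarboxylic acid, and peroxisomes shorten it further. The pathway is a side route of hepatic fatty acid breakdown beside mitochondrial beta-oxidation. Cyp4a10 and Cyp4a14 are textbook targets of PPARalpha, the nuclear receptor that senses fatty acids, whereas Cyp4a12a is known for its male-predominant, androgen-dependent expression and for making 20-HETE from arachidonic acid.

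The 6 genes lie in a cluster on chromosome 4 of GRCm38, from base 115299046 (the start of Cyp4a12a) to base 115621602 (the end of Cyp4a32), with Cyp4a14 alone on the minus strand. They fall into blocks of near-identical copies, which bears on how reads could be assigned to them. Over 1527 aligned coding bases Cyp4a10 was identical to Cyp4a32 at 97.2% and to Cyp4a31 at 96.6% of positions. Cyp4a12a and Cyp4a12b differed at 23 of 1524 coding bases (98.5% identity). Cyp4a14 stood apart, with 75.0% to 75.9% identity to each of the other 5. The blocks can be seen in the 90-base coding window in which the 6 genes differ at the most positions (49 of 90), where capitals mark bases unlike the commonest base of the 6. Where bases were equally common, the alphabetically first counted as the commonest, so at such positions the choice of capitals is arbitrary. The window starts at coding base 630 in Cyp4a10, Cyp4a31 and Cyp4a32, at 627 in Cyp4a12a and Cyp4a12b and at 624 in Cyp4a14, counted from 1 at the start codon.
Cyp4a10: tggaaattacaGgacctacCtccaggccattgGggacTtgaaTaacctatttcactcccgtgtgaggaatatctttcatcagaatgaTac
Cyp4a31: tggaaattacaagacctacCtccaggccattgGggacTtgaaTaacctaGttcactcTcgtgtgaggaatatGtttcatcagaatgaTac
Cyp4a32: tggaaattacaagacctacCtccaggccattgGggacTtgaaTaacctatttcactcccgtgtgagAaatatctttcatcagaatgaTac
Cyp4a12a: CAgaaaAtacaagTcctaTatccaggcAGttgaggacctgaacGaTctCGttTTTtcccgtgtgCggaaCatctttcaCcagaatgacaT
Cyp4a12b: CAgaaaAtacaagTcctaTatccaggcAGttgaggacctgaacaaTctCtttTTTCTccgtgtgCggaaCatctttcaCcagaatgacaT
Cyp4a14: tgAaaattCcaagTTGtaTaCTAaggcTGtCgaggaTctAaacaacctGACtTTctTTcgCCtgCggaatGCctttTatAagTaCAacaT
In this window Cyp4a10 and Cyp4a32 differ at 2 bases and Cyp4a12a and Cyp4a12b at 4, whereas Cyp4a14 differs from Cyp4a10 at 38. Over other stretches the copies are identical. The longest coding stretch shared without a difference by Cyp4a10, Cyp4a31 and Cyp4a32 is 148 bases long (coding bases 1279 to 1426 of Cyp4a10). It holds codons of the heme-binding loop, the part of a P450 that carries its iron, and is shown with capitals at the 24 bases that differ from Cyp4a14.
Shared by Cyp4a10, Cyp4a31 and Cyp4a32: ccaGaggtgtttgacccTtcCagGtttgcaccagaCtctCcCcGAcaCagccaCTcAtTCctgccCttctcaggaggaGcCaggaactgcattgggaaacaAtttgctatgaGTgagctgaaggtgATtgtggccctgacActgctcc
Of all stretches of 100 bases in each transcript, 20.1% of those of Cyp4a32, 12.7% of Cyp4a10 and 8.22% of Cyp4a31 also occur in another gene. The share was 35.8% for Cyp4a12a and 36.2% for Cyp4a12b, and 0 of 2397 stretches of Cyp4a14 were shared. No source used here states the counting rule for reads with several matching places. Values of the 2 blocks are uncertain to that extent, and sums over a block are given beside single genes. No exon of another annotated gene overlaps those of the 6.

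The libraries held between 15005668 and 18255623 counts, so 1 count was worth 0.0580 to 0.0649 CPM. This unit is the read count over the library size, scaled by edgeR's TMM factors, unless the library total is named. Library HFD 335 also carried transcripts of other tissues. A list of 12 skeletal muscle genes summed to 960 CPM of its total there and to 0.866 to 1.02 CPM in the other 3 libraries, and 12 exocrine pancreas genes to 202 CPM against 12.1 to 25.5 CPM. Hepatocyte markers (8 genes) summed to 78050 to 84709 CPM. Adipocyte markers (7 genes) summed to 144 CPM in HFD 335 against 15.8 to 24.6 CPM in the rest. A list of 8 smooth muscle and mesothelium genes reached 203 CPM there and 5.15 to 7.20 CPM in the rest. Kidney also expresses Cyp4a genes. Of 8 listed proximal tubule markers 4 (Kap, Slc34a1, Slc5a2 and Slc5a12) had 0 counts in all 4 libraries. Aqp1, a water channel also found in other cells, had 58.7 and 104 CPM in HFD and 50.5 and 16.6 CPM in I3A libraries, Lrp2 had 12 to 55 counts, and Cubn and Slc22a6 had at most 2 counts. Ddx3y of the Y chromosome measured 70.7 to 77.7 CPM in all 4 libraries, and Xist, the RNA of the inactive X chromosome, had 0 to 8 counts. In such bulk samples fewer cells of a type and less RNA per cell cannot be told apart. That each library is a separate animal is not stated in words. The p-values thus set a group difference against the spread between these libraries, which the fit estimates partly from other genes.

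Cyp4a14 and Cyp4a10 were among the most abundant liver transcripts and made up most of the family. Per kilobase of transcript, Cyp4a10 ranked between 45 and 68 among all genes in the 4 libraries and Cyp4a14 between 37 and 79. On that scale the HFD livers held 970 ± 124 CPM per kilobase of Cyp4a10 (SD, n = 2), 755 ± 161 of Cyp4a14, 81.6 ± 17.6 of Cyp4a12a, 40.3 ± 3.39 of Cyp4a12b, 35.9 ± 3.30 of Cyp4a32 and 27.1 ± 11.0 of Cyp4a31. In I3A livers the order was Cyp4a14 (1490 ± 230 CPM per kilobase), Cyp4a10 (1276 ± 229), Cyp4a32 (69.0 ± 5.07), Cyp4a12a (68.7 ± 0.0979), Cyp4a12b (47.2 ± 3.31) and Cyp4a31 (33.6 ± 0.00156). Cyp4a10 exceeded Cyp4a14 in both HFD libraries and Cyp4a14 exceeded Cyp4a10 in both I3A libraries. Neighbours whose libraries overlapped were Cyp4a12b, Cyp4a32 and Cyp4a31 in HFD livers, and in I3A livers Cyp4a14 with Cyp4a10 and Cyp4a32 with Cyp4a12a. The remaining 5 Cyp4a rows of the count table, 2 coding genes and 3 pseudogenes, had 1 count among all 4 libraries.

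**Figure D1:**
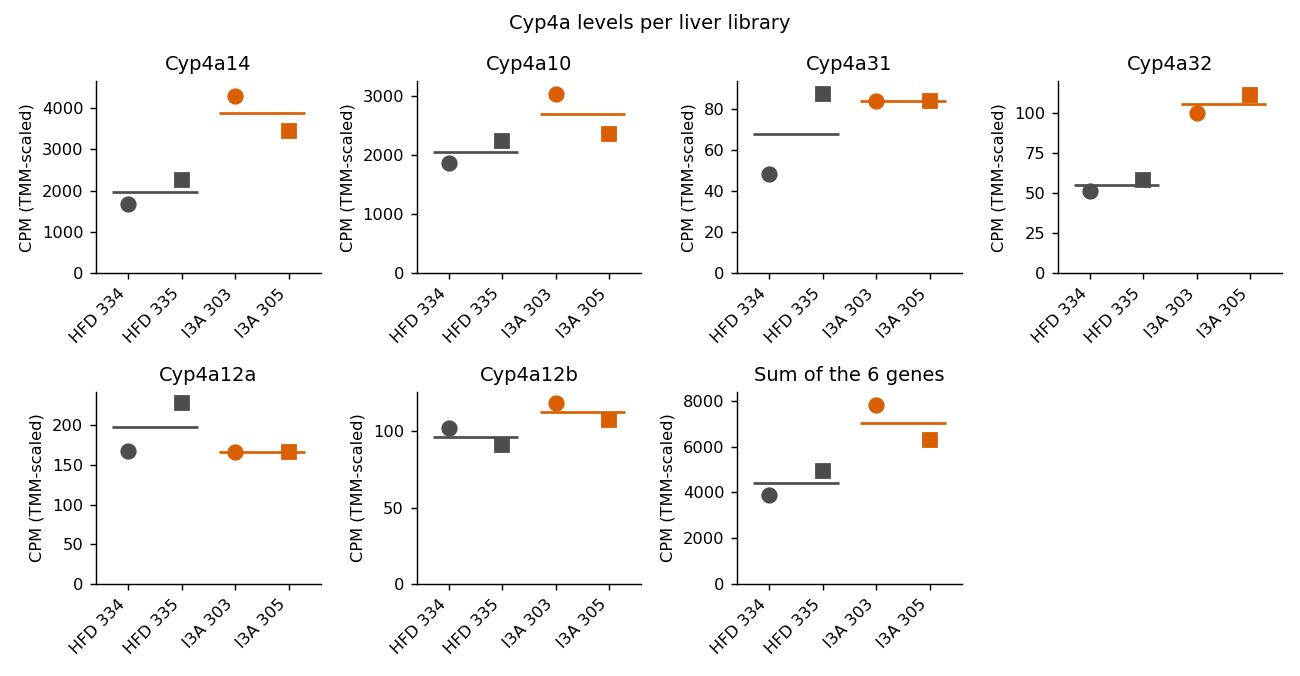
Each panel shows 1 gene, or the sum of the 6, with CPM on the vertical axis and the 4 libraries on the horizontal axis (grey HFD, orange I3A; lines are group means of 2 libraries). Cyp4a14, Cyp4a32 and the sum lie higher in both I3A libraries than in both HFD libraries, Cyp4a31 is set apart by HFD 334 (48.4 CPM) and Cyp4a12a by HFD 335 (228 CPM).

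Cyp4a14, with Cyp4a32, had the larger fold differences of the 6 between the groups. It measured 1667 CPM in HFD 334, 2261 in HFD 335, 4298 in I3A 303 and 3452 in I3A 305. Both I3A libraries lay well above both HFD libraries. The level was 1.97-fold higher in I3A livers (1964 ± 420 against 3875 ± 598 CPM; log2 fold change 0.98 ± 0.20, SE, 95% interval 0.47 to 1.49). In edgeR's quasi-likelihood test the unadjusted p was 0.00358 and the p adjusted over all 13403 genes 0.218, so the gene did not pass. DESeq2 did call it (adjusted p = 8.46e-05), beside 1.81% of genes called in the higher direction and 3.34% in either. With single libraries left out the log2 fold change ran from 0.79 (without HFD 334) to 1.22 (without HFD 335). The order of Cyp4a14 and Cyp4a32 was not fixed, since Cyp4a32 had the larger value without HFD 334 (0.87 against 0.79) and without I3A 303 (1.03 against 0.83).

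Cyp4a32, a close copy of Cyp4a10 with a far lower level, had the smallest p of the 6. Its values were 51.5 CPM in HFD 334, 58.7 in HFD 335, 100.5 in I3A 303 and 111 in I3A 305. The gap between the groups was several times that between libraries of a group. The level was 1.92-fold higher in I3A livers (log2 fold change 0.94 ± 0.11, SE, 95% interval 0.66 to 1.23; edgeR unadjusted p = 2.59e-04, adjusted p = 0.145), with DESeq2 again calling it (adjusted p = 3.82e-06). Reads for this gene amounted to 2.63% to 4.74% of those for Cyp4a10. The ratio of Cyp4a32 to Cyp4a10 counts was 0.0277 and 0.0263 in HFD and 0.0331 and 0.0474 in I3A libraries, so the gene was also higher relative to its larger copy. Whether reads shared with Cyp4a10 take part in the value was not tested.

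Cyp4a10, the other abundant member, showed a smaller difference. It stood at 1862 CPM in HFD 334, 2231 in HFD 335, 3033 in I3A 303 and 2351 in I3A 305. I3A 305 lay only just above HFD 335, and the gap within the I3A group (682 CPM) was close to the difference of the group means (646 CPM). The log2 fold change was 0.40 ± 0.18 (SE, 95% interval -0.05 to 0.84; edgeR unadjusted p = 0.0716, adjusted p = 0.424). It was 0.22 without I3A 303.

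Cyp4a31 did not separate the groups. It measured 48.4 CPM in HFD 334, 87.4 in HFD 335 and 84.3 in both I3A libraries. HFD 335 was thus above the I3A libraries and HFD 334 alone was low. The log2 fold change of 0.31 ± 0.27 (SE, 95% interval -0.36 to 0.98; edgeR adjusted p = 0.660) turned to -0.04 without HFD 334 and was 0.80 without HFD 335. Summed over Cyp4a10, Cyp4a31 and Cyp4a32, which is free of how reads were split among these copies, the block held 1961 and 2377 CPM in HFD and 3217 and 2546 CPM in I3A libraries, a ratio of means of 1.33.

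The Cyp4a12 pair lay near level. Cyp4a12a measured 167 CPM in HFD 334, 228 in HFD 335, 166 in I3A 303 and 167 in I3A 305, so that 3 libraries were nearly equal and HFD 335 was high. Its log2 fold change was -0.25 ± 0.16 (SE, 95% interval -0.65 to 0.15; edgeR adjusted p = 0.546), -0.01 without HFD 335 and -0.44 without HFD 334. Cyp4a12b had 102 and 90.9 CPM in HFD and 119 and 107 CPM in I3A libraries, with both I3A libraries slightly higher. Its log2 fold change was 0.23 ± 0.11 (SE, 95% interval -0.05 to 0.50; edgeR adjusted p = 0.451), and 0.14 without HFD 335 or with scaling by library size. As a pair the 2 genes summed to 269.8 and 319 CPM in HFD and 285 and 274 CPM in I3A libraries, a ratio of means of 0.950 whose log2 value (-0.07) became 0.05 without HFD 335.

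**Figure D2:**
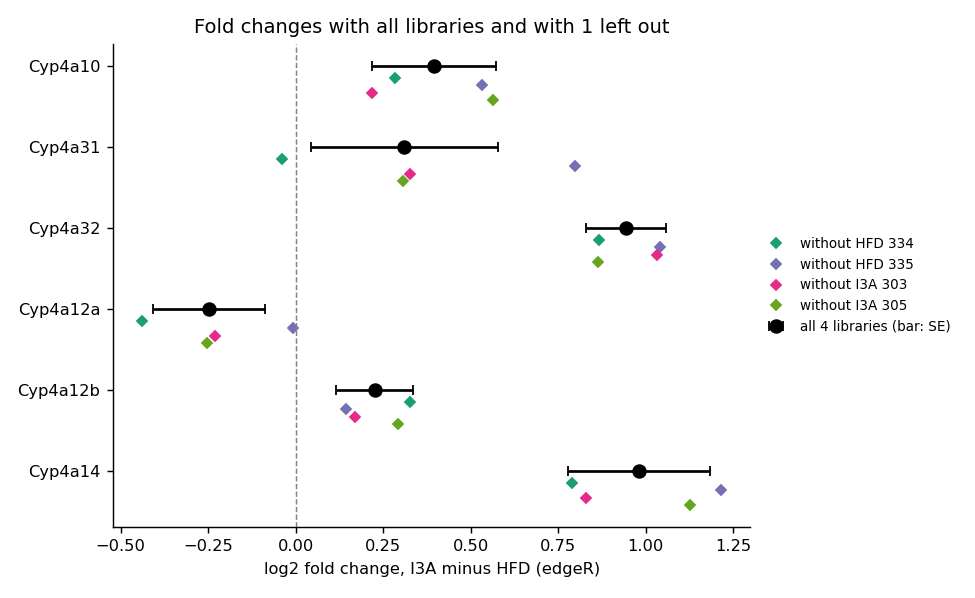
The log2 fold change (I3A minus HFD, edgeR) is on the horizontal axis for each gene, with black points for all 4 libraries (bars are SE) and coloured diamonds for fits with 1 library left out. Cyp4a14 and Cyp4a32 stay between 0.79 and 1.22 throughout, while the diamonds of Cyp4a31 spread from -0.04 to 0.80 and those of Cyp4a12a from -0.44 to -0.01.

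As a family the 6 genes summed to 3899 CPM in HFD 334, 4956 in HFD 335, 7800.3 in I3A 303 and 6272 in I3A 305. The I3A libraries were again both higher, at 0.776% and 0.593% of all counts against 0.400% and 0.513%. The ratio of means was 1.59 (4427 ± 748 against 7036 ± 1081 CPM, SD, n = 2), beside a ratio of 1.27 between the HFD and 1.24 between the I3A libraries. The log2 ratio was 0.67, with 0.52 to 0.85 when single libraries were left out. Cyp4a14 accounted for 73.2% of the difference in summed CPM and Cyp4a10 for 24.7%. The other 4 genes together had 370 and 465 CPM in HFD libraries and 469.6 and 469.7 CPM in I3A libraries.

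The make-up of the family also differed between the libraries of the 2 groups. Ratios of genes within a library do not depend on scaling, and that of Cyp4a14 to Cyp4a10 counts was 0.896 in HFD 334, 1.01 in HFD 335, 1.42 in I3A 303 and 1.47 in I3A 305. The gap between the groups was wider than either gap within a group. Per kilobase, Cyp4a14 formed 38.0% and 40.8% of the summed level in HFD libraries and 50.0% and 49.9% in I3A libraries, and Cyp4a10 52.3% and 49.6% against 43.5% and 41.9%. The ratio of Cyp4a12a to Cyp4a12b was 1.64 and 2.50 in HFD and 1.40 and 1.55 in I3A libraries. An exact two-sided permutation test of 2 against 2 libraries cannot go below p = 0.333. The ratios of Cyp4a14 to Cyp4a10 and of Cyp4a12a to Cyp4a12b both had this value, so the test cannot decide on either.

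**Figure D3:**
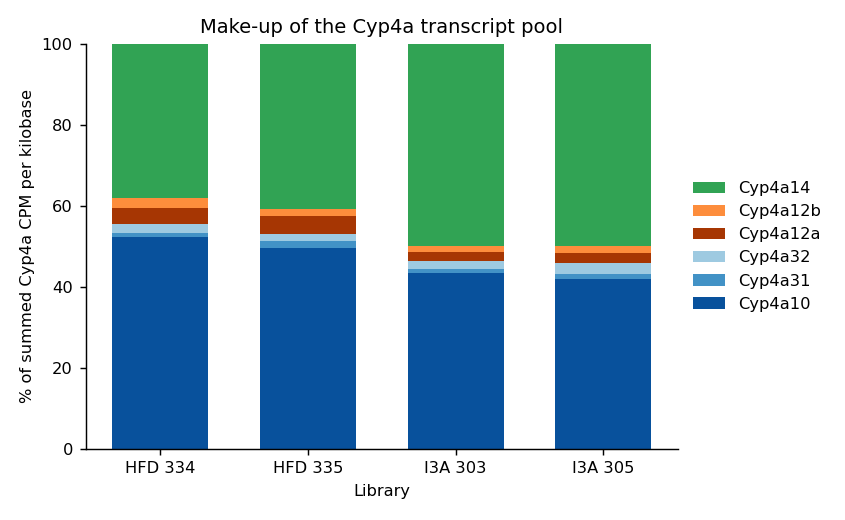
Stacked bars give, for each library, the percentage of the summed Cyp4a level per kilobase that each gene contributes (vertical axis, 0 to 100%). The green Cyp4a14 part widens from 38.0% and 40.8% in the HFD libraries to 50.0% and 49.9% in the I3A libraries, and the dark blue Cyp4a10 part narrows.

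Over all 13403 tested genes 0% passed edgeR's adjusted p of 0.05, where the smallest adjusted p was 0.141, and 12.9% had an unadjusted p under 0.05 (6.66% higher and 6.24% lower in I3A). Of the 6 Cyp4a genes 0 passed in edgeR after adjustment, 2 had an unadjusted p under 0.05 (Cyp4a14 and Cyp4a32, both higher). DESeq2 called these 2, beside 3.34% of all genes to which it gave an adjusted p (1.81% in the higher direction). Groups that did not overlap were found in 4 of the 6 with I3A higher and in 1, Cyp4a12a, with I3A lower, beside 23.1% and 22.5% of all tested genes. The median log2 fold change was 0.35 over the 6 genes and -0.01 over all tested genes. With 6 genes in 2 blocks of copies and 1 single gene, these are not 6 independent readings.

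Other genes known as PPARalpha targets had negative log2 fold changes in 31 of 43 cases, beside 6899 of all 13403 tested genes. Of 43 tested genes of such a list 0 passed edgeR's adjusted test. At an unadjusted p under 0.05, 2 were higher and 9 lower in I3A, beside 6.66% and 6.24% of all tested genes. The list's median log2 fold change was -0.21 (-0.36 without I3A 303 and -0.01 without I3A 305). DESeq2 called 3 of the 43, all lower, beside 3.34% of all genes in either direction. The Cyp4a14 and Cyp4a32 values exceeded all 43 and that of Cyp4a10 all but 2, Cidec and Cpt1a. Cpt1a, which admits fatty acids to mitochondria, had 815 and 797 CPM in HFD and 1003 and 1143 CPM in I3A libraries (log2 fold change 0.41 ± 0.12, SE). Acot1, an acyl-CoA thioesterase, measured 173 and 169.9 CPM in HFD against 124 and 67.2 CPM in I3A libraries (-0.85 ± 0.28). Vnn1, the pantetheinase, measured 247 and 206 against 176 and 84.5 CPM (-0.80 ± 0.34). For both genes I3A 305 was the lowest library.

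Cd36, a fatty acid transporter, had the smallest p of the list (45.3 and 65.4 against 21.6 and 22.8 CPM; -1.32 ± 0.19). Fitm2 and Plin4, both of lipid droplets, had log2 fold changes of -0.50 ± 0.10 and -0.88 ± 0.25. Cd36, Fitm2 and Plin4 were each highest in HFD 335, the library with more adipocyte and muscle transcripts, and their HFD 334 values also lay above both I3A libraries. The part of those transcripts was not tested. Without HFD 335 the list's median was -0.26. Pdk4, the kinase that shuts pyruvate dehydrogenase, stood at 85.8 CPM in HFD 335 and at 4.12 to 8.44 CPM in the other 3 libraries, so its value of -3.17 rests on HFD 335. Fgf21, a liver hormone of fasting, was high in HFD 334 (81.9 CPM) and lay between 19.3 and 31.1 CPM elsewhere. The receptor Ppara itself had 178 and 145 CPM in HFD and 158 and 143 CPM in I3A libraries (-0.10 ± 0.13, edgeR adjusted p = 0.790). Among 14 tested genes of the receptor, its partners and coactivators, Ppargc1a alone had an unadjusted p under 0.05 and was higher in I3A. Over all tested genes 6.66% were higher at that threshold. Ppargc1a measured 6.82 and 9.08 against 16.9 and 16.5 CPM (1.07 ± 0.19, edgeR adjusted p = 0.200). DESeq2 called this gene alone of the 14 (adjusted p = 0.0100), beside 1.81% of genes called higher. The median of the 14 was -0.07.

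**Figure D4:**
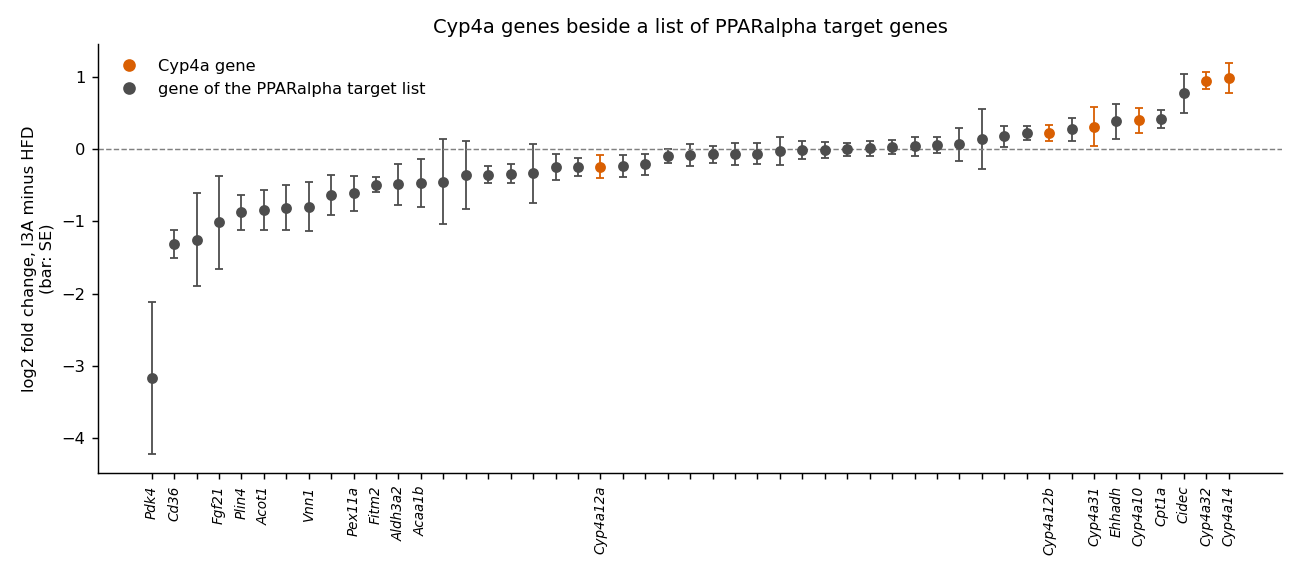
Each point is the log2 fold change (I3A minus HFD, vertical axis, bars are SE) of 1 gene, ordered from lowest to highest, with the 6 Cyp4a genes in orange and the 43 tested genes of the PPARalpha target list in grey (names are given for genes described in the text). Cyp4a14 and Cyp4a32 form the upper end at 0.98 and 0.94, Pdk4 the lower end at -3.17, and most grey points lie below 0.

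Steps that follow the hydroxylation showed differences in both directions. Of 8 tested alcohol and aldehyde dehydrogenases 6 had a negative log2 fold change, and 0 passed in edgeR. Groups did not overlap in 5 with I3A lower and in 1 with I3A higher, beside 22.5% and 23.1% of all tested genes. At an unadjusted p under 0.05, 1 was higher and 2 were lower, beside 6.66% and 6.24% of all tested genes. The higher gene was Adh5 (303 and 291 against 356 and 364 CPM). The lower genes were Aldh1a1 (996 and 1043 against 812 and 791 CPM) and Adh7 (33.6 and 30.3 against 25.9 and 16.0 CPM). The median log2 fold change of the 8 was -0.29. Without I3A 305 the median was -0.14, and without HFD 334 it was -0.23. Aldh3a2, the fatty aldehyde dehydrogenase of the pathway, ranged from 599 to 768 CPM in HFD and from 353 to 622 CPM in I3A libraries. Adh4 was level (0.03 ± 0.11). In peroxisomal dicarboxylic acid oxidation 0 of 14 genes passed. At an unadjusted p under 0.05 stood 6.66% (higher) and 6.24% (lower) of all tested genes, and 1 of the 14 in each direction. These were Crot, the carnitine octanoyltransferase (1014 and 1172 against 1544 and 1412 CPM; 0.44 ± 0.13), and Pex11a, which divides peroxisomes (202 and 188 against 159 and 95.8 CPM; -0.62 ± 0.24). The bifunctional enzyme Ehhadh measured 1002 and 1242 CPM in HFD and 1792 and 1140 CPM in I3A libraries, and the thiolase Acaa1b 1948 and 2045 against 1946 and 930.2 CPM. Of the electron donors of P450 enzymes 0 of 5 passed, and Por, the reductase that supplies Cyp4a enzymes, overlapped between the groups (479 and 602 against 504 and 635 CPM). At an unadjusted p under 0.05, 1 of these 5 was lower and 0 were higher, beside 6.24% and 6.66% of all tested genes. The lower gene was Cyb5r3 (251 and 237 against 199 and 177 CPM; -0.38 ± 0.11).

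Relatives of the Cyp4 family outside Cyp4a were tested for 8 genes. Negative log2 fold changes were found in 5 of the 8, beside 6899 of all 13403 tested genes. None of the 8 passed in edgeR and 2 had an unadjusted p under 0.05, both with I3A lower, beside 6.24% of all tested genes. DESeq2 called 1 of the 8, Cyp4f14, as lower, beside 3.34% of all genes in either direction. Groups did not overlap in 3 with I3A lower and in 2 with I3A higher, beside 22.5% and 23.1% of all tested genes. Cyp4f14, which breaks down leukotriene B4, measured 130 and 116 CPM in HFD and 82.9 and 79.5 CPM in I3A libraries (log2 fold change -0.60 ± 0.10, SE; edgeR adjusted p = 0.184, DESeq2 adjusted p = 0.00349). Cyp4v3, an omega-hydroxylase of medium-chain fatty acids, measured 453 and 423 against 348 and 295 CPM (-0.44 ± 0.12; edgeR adjusted p = 0.291). Cyp4f15 was level (168 and 169 against 185 and 157 CPM) and Cyp4b1 ran from 9.55 and 12.7 to 8.80 and 2.90 CPM. Cyp4x1 had 0 counts in all 4 libraries, which allows up to 0.195 CPM (3 counts, for counting error only).

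Male-predominant liver genes were set beside Cyp4a12a. Of 20 such genes 0 passed edgeR's adjusted test. At an unadjusted p under 0.05, 8 were lower and 0 higher in I3A, beside 6.24% and 6.66% of all tested genes. The median log2 fold change of the 20 was -0.40 (-0.26 without HFD 334). DESeq2 called 6 of the 20, all lower, beside 3.34% of all genes in either direction. Elovl3, a fatty acid elongase, measured 335 and 336 CPM in HFD and 189.6 and 187 CPM in I3A libraries (-0.83 ± 0.092, SE). Hsd3b5, a steroid-reducing enzyme, measured 257 and 169 against 98.9 and 70.8 CPM, and the organic anion transporter Slco1a1 615 and 559 against 441 and 238 CPM. The selenium-binding protein Selenbp2 measured 891 and 556 against 339 and 319.5 CPM and the glucuronidating enzyme Ugt2b1 591 and 543 against 343 and 366 CPM. Of the likewise male-predominant Cyp2d9 and Cyp7b1, the former was slightly higher in both I3A libraries (0.15 ± 0.14) and the latter overlapped between the groups (0.08 ± 0.17). Among 13 genes of growth hormone and androgen signalling 0 passed. At an unadjusted p under 0.05, 3 were lower and 1 higher, beside 6.24% and 6.66% of all tested genes. In DESeq2 1 of the 13 was called higher and 2 lower, beside 1.81% of all genes higher and 3.34% in either direction. The growth hormone receptor Ghr measured 521 and 399.6 CPM in HFD and 311 and 293 CPM in I3A libraries. Igfals, which carries IGF in plasma, measured 109 and 106 against 61.9 and 72.2 CPM. The remaining lower gene was Cish, whose log2 fold change of -2.78 rests on HFD 335 (49.2 CPM). The higher gene was Esr1 (9.35 and 11.3 against 15.3 and 32.5 CPM; 1.21 ± 0.37). Of 29 female-predominant genes 14 were tested and 0 passed. At an unadjusted p under 0.05, 3 were higher and 2 lower, beside 6.66% and 6.24% of all tested genes. DESeq2 called 2 higher and 1 lower, beside 1.81% of all genes higher and 3.34% in either direction. Log2 fold changes were positive for 6 and negative for 8 of the 14, with a median of -0.17. The 4 genes named next had the smallest p of the 14 and do not stand for the list. Cyp2c40 measured 3.38 and 3.75 CPM in HFD and 13.1 and 11.9 CPM in I3A libraries (1.81 ± 0.20), Cyp2c69 1.10 and 1.63 against 5.97 and 6.49 CPM (2.18 ± 0.32), Cyp2a5 117 and 170.5 against 88.9 and 73.7 CPM (-0.82 ± 0.20) and Cyp17a1 17.4 and 18.1 against 30.3 and 101 CPM (1.89 ± 0.54). Cyp2b9 had at most 2 counts in a library.

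Acute phase transcripts differed between the groups as well. All 18 listed genes were higher in both I3A libraries than in both HFD libraries, beside 23.1% of all tested genes. At an unadjusted p under 0.05, 14 of the 18 were higher, beside 6.66% of all tested genes. None passed edgeR's adjusted p, and DESeq2 called 13, beside 1.81% of genes called higher. The 18 genes summed to 21360 to 21780 CPM of the library total in HFD and 37384 to 56199 CPM in I3A libraries. Saa1, a serum amyloid A made in inflammation, had 41.4 and 148 CPM in HFD and 3099 and 5226 CPM in I3A libraries. Within the I3A group Saa1 and Cyp4a32 were higher in 305, Cyp4a10, Cyp4a12b and Cyp4a14 were higher in 303, and Cyp4a12a and Cyp4a31 were nearly equal in both. Markers of periportal hepatocytes, the liver cells near the portal vein, were higher in both I3A libraries for 9 of 10 genes. Their median log2 fold change was 0.99. At an unadjusted p under 0.05, 7 were higher, 0 passed edgeR's adjusted p and DESeq2 called 6 higher. The shares over all genes were again 23.1%, 6.66% and, in DESeq2, 1.81%. The periportal markers summed to 9254 to 9898 CPM of the library total in HFD and 13011 to 17247 CPM in I3A libraries. The 10 pericentral markers, of hepatocytes near the central vein, summed to 13453 to 14701 CPM in HFD and 12619 to 13563 CPM in I3A libraries. At an unadjusted p under 0.05, 2 were higher and 2 lower, beside 6.66% and 6.24% of all tested genes. Sinusoidal endothelial markers (6 genes) summed to 136 to 212 CPM in HFD and 46.8 to 123 CPM in I3A libraries. The part of these transcripts in the Cyp4a values was not tested.

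Genes with the most similar pattern over the 4 libraries were sought by the root mean square difference of log2 CPM, each gene centred on its own mean, among 7311 genes whose mean over the 4 libraries was at least 10 CPM, so that single libraries can lie below it. Nearest to Cyp4a14 were Hsd17b7 (52.7 and 73.3 CPM in HFD, 136 and 111 CPM in I3A libraries; difference 0.0136), Tbc1d30 (0.0343) and Mvk (0.0647), and only 4 genes lay within 0.1 of it. Nearest to Cyp4a32 were Agtr1a (0.0301), Dhtkd1 (0.0382) and Serpinb9 (0.0482), with 14 genes within 0.1, and nearest to Cyp4a10 were Cd1d1 (0.0295), Reps1 (0.0332) and AI987944 (0.0567), with 47. Cyp4a31 was nearest to Rnd1 (0.0370), Zfp568 and Prkag2, and Cyp4a12a to Ypel2 (0.0155), Selenow and Cobll1. For Cyp4a12b, whose values varied little, 760 genes lay within 0.1, led by Tor1a, Rgl3 and Ccdc58. Within the family the closest pairs were Cyp4a14 with Cyp4a32 (0.189) and Cyp4a10 with Cyp4a12b (0.190), and the farthest was Cyp4a12a with Cyp4a14 (0.620). By member, Cyp4a12a lay nearest to its copy Cyp4a12b (0.320) and Cyp4a31 to Cyp4a10 (0.246), whereas Cyp4a10, Cyp4a12b and Cyp4a32 lay nearest to a member of another block. This is a description over 4 libraries only.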

How the data were processed

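Per the labels' protocols, total RNA came from liver by Trizol and was sequenced on Illumina after NEBNext Ultra library preparation. The submitters' processing notes name HISAT2, featureCounts 1.5.0-p3 and GRCm38. The annotation, strandedness and handling of multi-mapped reads were not stated there or in the labels. Values are the authors' deposited read counts, unnormalized whole numbers for each gene. Libraries were grouped by their titles, which share no replicate number between groups. Genes were kept by filterByExpr (minimum 10 counts), scaled by TMM and tested with edgeR 4.0.16 (quasi-likelihood, group as the only term, Benjamini-Hochberg over all 13403 genes, threshold 0.05) in R 4.3.3. DESeq2 1.42.0 and limma-voom (limma 3.58.1) were alternatives, as were other scalings, filters, a robust fit and leaving out each library. The edgeR, DESeq2 and limma-voom tests were tried on simulated data. CPM per kilobase used the table's gene lengths. The SE of a log2 fold change was taken from its edgeR F statistic, and intervals are 95% intervals from it. Summed levels have no test. Coding sequences and stretches came from GENCODE M21 transcripts (GRCm38), 1 transcript per gene with the longest coding part, aligned with MAFFT 7.526; the table's start and end of all 6 genes equal those of GENCODE. The members and the 13 context lists were chosen with earlier results of these data known. Named genes are all 6 members, up to 4 genes per list by smallest unadjusted p, a set of 23 fixed genes (1 of them is not reported here), and the 3 genes most alike per member. Cidec, and genes given in the check of tissue markers and Y-linked transcripts, were named after their values were seen.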

Additional observations from a re-analysis of the deposited data

How the results depend on the processing

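No paired analysis was possible because the 2 groups share no replicate numbers. The number of genes past an adjusted p of 0.05 in edgeR was 0 with RLE, upper-quartile or library size scaling, with at least 10 counts in every library, in the robust fit and in limma-voom, but 619 without a filter on low counts and 335 in DESeq2; with single libraries left out it ran from 0 (without I3A 305) to 343 (without HFD 334), with 21 without HFD 335 and 43 without I3A 303. Such fits assume that the lone library varies like the other group. The cause was not tested. Cyp4a14 and Cyp4a32 passed in 2 of 12 alternatives each: without the filter (log2 fold change 0.99, adjusted p = 0.00239, and 0.95, adjusted p = 3.92e-04) and in DESeq2 (0.98 and 0.94). Over all 12 alternatives their edgeR, DESeq2 or limma adjusted p ranged from 8.46e-05 to 0.512 and from 3.82e-06 to 0.426. Cyp4a10, Cyp4a12a and Cyp4a12b kept direction and stayed unpassed in all 12; with single libraries left out they ranged from 0.22 to 0.56, from -0.44 to -0.01 and from 0.14 to 0.33. Cyp4a31 turned to -0.040 without HFD 334 (up to 0.80 without HFD 335), and the summed Cyp4a12 pair turned from -0.07 to 0.051 without HFD 335 (-0.18 without HFD 334). The summed 6 genes kept a positive log2 ratio (0.58 with library size scaling, 0.64 per kilobase). List medians that changed sign were those of the P450 electron donors (-0.089 to 0.046 with single libraries left out, positive without HFD 335), peroxisomal dicarboxylic acid oxidation (-0.12 to 0.051, positive without I3A 305), PPARalpha and partners (-0.12 to 0.033, positive without HFD 334) and female-predominant genes (-0.17 with all libraries, 0.38 without HFD 335 and 0.19 without I3A 303). The lowest count of a member in a library was 746 (Cyp4a31 in HFD 334), and 2 libraries a group limit the precision.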

Other observations

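Gene groups next to the family were also measured. Some P450 enzymes of the Cyp2c and Cyp2j families epoxidize arachidonic acid, the other P450 route of this fatty acid beside omega-hydroxylation. A list of Cyp2c and Cyp2j genes with the epoxide hydrolases Ephx1 and Ephx2 was tested for 13 of its 17 genes in the table. Its P450 members, Cyp2c70 among them, are not all known for this reaction. None of the 13 passed edgeR's adjusted test (median log2 fold change 0.08). At an unadjusted p under 0.05, 3 were higher and 2 lower, beside 6.66% and 6.24% of all tested genes. DESeq2 called 1, higher, beside 1.81% of genes in that direction. Cyp2c38 measured 12.3 and 11.1 CPM in HFD and 21.4 and 18.1 CPM in I3A libraries, Cyp2c68 114 and 105 against 161 and 144 CPM, and Cyp2j6 83.9 and 76.6 against 64.7 and 57.7 CPM. Members of the Cyp2c and Cyp2j families have close copies too.

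Cyp4a10 and Cyp4a14 are known to follow the time of day and feeding, and the labels give no time of collection. Of 18 clock and clock output genes 0 passed in edgeR, with 1 higher (Arntl, 4.29 and 4.48 CPM in HFD, 5.84 and 12.4 CPM in I3A libraries) and 1 lower (Hlf, 72.9 and 56.0 against 51.9 and 44.9 CPM) at an unadjusted p under 0.05. The median log2 fold change was -0.38. It was -0.56 without HFD 335, -0.52 without I3A 303 and -0.15 without HFD 334 or without I3A 305. Over all tested genes with all 4 libraries, 6.66% were higher and 6.24% lower at an unadjusted p under 0.05. DESeq2 called 0 of the 18.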
